A study of Homo sapiens with 22 samples.

Results

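STAG1 and STAG2 peaks of clone D7 were compared to ask where the 2 forms of cohesin lie in the same cells. The cells were hTERT RPE-1, human retinal pigment epithelial cells made immortal with telomerase. The peaks were chosen by antibody and clone: the peak list of the STAG1 precipitation, with 26879 peaks, and that of the STAG2 precipitation, with 22518 peaks, so 49397 of the 341123 peaks of all 12 deposited lists. A peak was called shared when it overlapped a peak of the other list by at least 1 bp, and was otherwise called STAG1-only or STAG2-only. There were 15585 shared and 11294 STAG1-only peaks in the STAG1 list, and 15675 shared and 6843 STAG2-only peaks in the STAG2 list. The shared counts differ between the lists because a wide peak can overlap several peaks of the other list.

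Clone D7 carries mGreenLantern-P2A-FKBP12(F36V)-NIPBL, so both STAG libraries come from cells in which NIPBL is fused to a degron, a domain through which the small molecule dTAGV-1 directs a protein to degradation. Clone A2 carries mCherry-P2A-FKBP12(F36V)-NIPBL. Each is a single clone. The labels of the STAG libraries name no treatment, while the peak names within both lists carry DMSO, the solvent control. Both were called against the same input. Both clones gave RAD21 libraries from cells kept 24 h in DMSO, 4 h in dTAGV-1 or 24 h in dTAGV-1. PDS5A was precipitated from clone D7 kept 24 h in DMSO, and CTCF and WAPL from wild-type cells without a tag. The cells were asynchronous. The peak names of 1 further list, an HA precipitation from clone A2, call it HA-NIPBL. No list measures NIPBL after dTAGV-1, so its loss was not checked here. RAD21 and PDS5A libraries had NIH/3T3 mouse chromatin added at about 10%, and the STAG1, STAG2, CTCF and WAPL libraries held none. Every group held 1 library, so a difference between STAG1 and STAG2 is a difference between 2 libraries made with 2 antibodies, and no test between groups was possible. Peak lists hold no expression values, so the cell line could not be checked against markers.

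Cohesin is a ring-shaped complex that extrudes DNA loops and holds sister chromatids together. Its core ring of SMC1A, SMC3 and the kleisin RAD21 binds either STAG1 or STAG2, and the STAG subunit is the surface through which the complex contacts CTCF and several regulators. NIPBL loads cohesin and stimulates its movement along DNA, PDS5A and WAPL act in its pausing and release, and CTCF, a zinc-finger protein, is where moving cohesin is retained. STAG1-cohesin is known for binding at CTCF sites and at promoters and for telomere cohesion, and STAG2-cohesin for a larger part at enhancers and sites without CTCF.

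The 6 promoters of protein-coding genes printed here, taken from the RefSeq promoter table of GRCh38.p14, show the kinds of start site that fell into each class. Each runs 5' to 3' on the strand of the gene, from 250 bases before to 50 bases after the start. Capitals mark a match to CCANNAGNNGGC, the core of the CTCF motif, searched on both strands. They are the highest-fold promoters of their set, with the peak summit inside the window. Only exact matches were counted, so a window without a match can still hold a CTCF site. SNX18 (chr5:54517509-54517808, + strand), which encodes a membrane-bending sorting nexin, held a shared peak. CEBPB (chr20:50190333-50190632, + strand) and COIL (chr17:56961001-56961300, - strand) held a STAG1-only peak and a motif match. They encode a leucine-zipper transcription factor and the Cajal body protein coilin. RAPGEF1 (chr9:131740027-131740326, - strand), which encodes an exchange factor for RAP1, held a STAG1-only peak and no match. TIA1 (chr2:70248744-70249043, - strand), encoding a stress granule RNA-binding protein, and SLC9A4 (chr2:102472976-102473275, + strand), encoding a sodium-proton exchanger, held a STAG2-only peak and no match.
SNX18: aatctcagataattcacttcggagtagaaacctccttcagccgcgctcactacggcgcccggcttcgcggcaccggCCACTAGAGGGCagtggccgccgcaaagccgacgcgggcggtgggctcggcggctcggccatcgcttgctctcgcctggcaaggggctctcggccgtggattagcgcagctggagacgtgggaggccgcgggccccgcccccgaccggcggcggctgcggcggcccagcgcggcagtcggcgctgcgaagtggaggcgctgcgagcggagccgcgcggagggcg
CEBPB: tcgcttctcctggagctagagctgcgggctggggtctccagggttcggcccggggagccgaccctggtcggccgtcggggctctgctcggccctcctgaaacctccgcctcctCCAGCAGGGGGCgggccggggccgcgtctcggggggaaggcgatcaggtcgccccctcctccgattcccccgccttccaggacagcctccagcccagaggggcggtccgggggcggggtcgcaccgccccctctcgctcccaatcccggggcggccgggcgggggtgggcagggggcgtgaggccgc
COIL: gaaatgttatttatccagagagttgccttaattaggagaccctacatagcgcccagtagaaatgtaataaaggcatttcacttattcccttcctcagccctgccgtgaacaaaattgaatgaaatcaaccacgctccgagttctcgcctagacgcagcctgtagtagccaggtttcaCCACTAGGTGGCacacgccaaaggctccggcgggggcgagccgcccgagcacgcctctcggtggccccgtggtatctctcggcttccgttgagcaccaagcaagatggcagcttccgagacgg
RAPGEF1: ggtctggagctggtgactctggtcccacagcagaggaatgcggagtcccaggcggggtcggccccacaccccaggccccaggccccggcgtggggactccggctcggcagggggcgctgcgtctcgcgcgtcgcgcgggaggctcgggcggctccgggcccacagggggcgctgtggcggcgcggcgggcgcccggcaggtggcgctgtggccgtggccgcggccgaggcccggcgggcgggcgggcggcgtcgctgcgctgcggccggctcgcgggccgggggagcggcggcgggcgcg
TIA1: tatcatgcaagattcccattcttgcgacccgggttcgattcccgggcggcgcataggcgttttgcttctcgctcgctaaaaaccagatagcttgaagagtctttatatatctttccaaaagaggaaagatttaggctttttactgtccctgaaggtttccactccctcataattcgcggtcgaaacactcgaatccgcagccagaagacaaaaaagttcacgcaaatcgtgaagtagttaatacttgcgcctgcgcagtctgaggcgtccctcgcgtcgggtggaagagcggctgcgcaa
SLC9A4: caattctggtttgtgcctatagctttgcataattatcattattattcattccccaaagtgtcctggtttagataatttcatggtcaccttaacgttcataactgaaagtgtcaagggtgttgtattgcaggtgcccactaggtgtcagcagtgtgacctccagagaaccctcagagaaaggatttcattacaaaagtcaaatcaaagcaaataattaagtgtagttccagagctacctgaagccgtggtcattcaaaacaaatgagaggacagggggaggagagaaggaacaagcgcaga
G and C made up 77% of the CEBPB window and 83% of that of RAPGEF1, 54.3% in COIL, 49.7% in TIA1 and 41.7% in SLC9A4. The match started at base 77 in SNX18, base 114 in CEBPB and base 178 in COIL. The peaks had a fold of 142 at SNX18, 50.6 at CEBPB, 18.8 at COIL and 66.2 at RAPGEF1 in the STAG1 list. In the STAG2 list they had a fold of 14.2 at TIA1 and 12.6 at SLC9A4. Fold is the enrichment over background that the authors deposited for a peak, and it ranks peaks within a list only. The SNX18, CEBPB, COIL, RAPGEF1 and SLC9A4 peaks overlapped a CTCF peak and a RAD21 peak in all 6 RAD21 lists. The TIA1 peak overlapped neither CTCF nor any RAD21 list. The RAPGEF1 and SLC9A4 windows, without an exact match, each held a stretch that differs from the motif by a single base.

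The lists differ in ways that bear on what follows. The average pileup over the genome, which serves as a depth since read totals were not used here, was 1.77 for STAG1 and 3.14 for STAG2. The narrowest peak was 348 bp for STAG1 and 310 bp for STAG2, and a caller's narrowest peak moves with the fragment length. The 6 RAD21 lists differed in their overlap with the exclusive peaks. Of the STAG1-only peaks, the share with RAD21 was 86.1% in D7 DMSO, 80.8% in D7 at 4 h and 54.4% in D7 at 24 h, and 80.8%, 33.3% and 48.9% in A2. Of the STAG2-only peaks, it was 49.3%, 34.8% and 52.3% in D7, and 66.5%, 51.9% and 31.3% in A2. A group of sites described at the end was present in the libraries labelled A2 DMSO, A2 4 h and D7 24 h and absent from those labelled A2 24 h, D7 DMSO and D7 4 h. RAD21 peaks still called after dTAGV-1 are therefore given for both clones.

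Of the STAG1 peaks, 58.0% were shared (95% Wilson interval 57.4% to 58.6%), and of the STAG2 peaks 69.6% (69.0% to 70.2%). All intervals here cover counting error only, since peaks of a list are not replicates. The 15581 mutual pairs of shared peaks lay on the same sites: their summits were a median of 15 bp apart and 96.3% were within 200 bp. Their folds had a Spearman correlation of 0.447 over those pairs, given as a description because both lists share an input. Shared peaks were the tallest of each list, with a median fold of 18.6 in the STAG1 list against 5.65 for STAG1-only, and of 13.0 in the STAG2 list against 6.75 for STAG2-only. Few peaks sat near the border of the rule. In the STAG1 list 19 shared peaks overlapped by at most 100 bp, with a median fold of 4.59, and 14 STAG1-only peaks ended less than 100 bp from a STAG2 peak, with 4.77. In the STAG2 list these were 18 peaks with 5.95 and 15 peaks with 4.62. Most exclusive peaks lay far from the nearest called peak of the other list, which follows in part from the rule that none overlaps one. The nearest STAG2 summit was a median of 30.8 kb from a STAG1-only summit, and the nearest STAG1 summit 42.9 kb from a STAG2-only summit. Only 52 STAG1-only and 51 STAG2-only peaks had a summit of the other list within 1 kb.

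The highest-fold peaks of each class show how different their surroundings were. The highest shared peak in the STAG1 list had a fold of 242 and lay on chromosome 12 at 127380694 to 127381849, 223207 bp from the nearest gene end. The next lay 22404 bp from SORL1, a sorting receptor, with 217, 11679 bp from ENAH, an actin regulator, with 213, and 13534 bp from MMP2, a collagenase, with 212. All 4 overlapped CTCF, WAPL, PDS5A and every RAD21 list. The highest STAG1-only peak had a fold of 66.2 and lay 133 bp from the RAPGEF1 start. The next was 4517 bp from OSR1, which encodes a zinc-finger developmental factor, with 61.8. The 2 after that lay in no gene, 114867 bp from SLC1A4, a neutral amino acid transporter, with 56.8, and 11149 bp from TULP4, with 53.4. In the STAG2 list the highest shared peaks had a fold of 128 in ANKRD22, 113 at 10850 bp from PEX39 and at 58060 bp from CYSLTR2, a leukotriene receptor, and 97.6 in PIK3C2G, a lipid kinase. The highest STAG2-only peaks lay inside genes and far from their ends. They were in SETD3, an actin histidine methyltransferase, with a fold of 73.7 and 18102 bp from an end, and in TUSC3, an oligosaccharyltransferase subunit, with 66.9 and 207824 bp. The next were in TFPI, an inhibitor of coagulation, with 64.7, and GABRB1, a GABA receptor subunit, with 56.7. All 4 STAG2-only peaks overlapped CTCF and none overlapped PDS5A.

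STAG1-only peaks lay closer to the ends of genes than STAG2-only peaks. A summit lay within 1 kb of either end of a protein-coding gene for 35.7% of STAG1-only peaks (34.8% to 36.6%, 4029 peaks), 7.82% of shared peaks of the STAG1 list and 2.15% of STAG2-only peaks (1.83% to 2.52%, 147 peaks). The difference between the only-classes was 33.5 points (95% Newcombe interval 32.6 to 34.5). It was 28.3 points among peaks that overlap CTCF. The median distance to a gene end was 4.83 kb for STAG1-only, 21.1 kb for shared and 57.5 kb for STAG2-only peaks. Beyond 100 kb from any gene end lay 9.52% of STAG1-only and 35.5% of STAG2-only peaks, with 17.1% of shared peaks in between. Position inside a gene differed less: the summit lay inside a protein-coding gene for 59.4% of STAG1-only, 43.6% of shared and 47.9% of STAG2-only peaks. Inside a gene and over 1 kb from any gene end lay 34.6%, 40.5% and 46.9%.

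**Figure D1:**
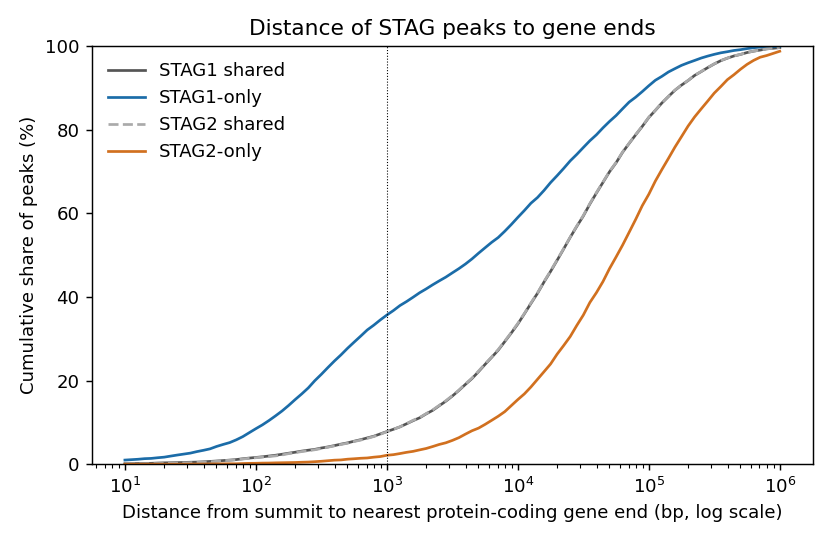
Cumulative share of peaks (%) against the distance from the summit to the nearest end of a protein-coding gene (bp, log scale) for shared, STAG1-only and STAG2-only peaks, with a dotted line at 1 kb. The 2 shared curves coincide, the STAG1-only curve passes 35.7% at the dotted line and the STAG2-only curve 2.15%.

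For STAG1-only peaks the end concerned was mostly the start of the gene, and for STAG2-only peaks it was not. Of the genes, 79.2% had a start in the promoter table. Within 1 kb of such a start lay 28.8% of STAG1-only, 4.32% of shared and 0.818% of STAG2-only peaks, which for STAG2-only are 56 peaks. Within 1 kb of the far end of these genes lay 2.62%, 2.08% and 0.964%. Among STAG1-only peaks the nearness to genes depended on peak height. In the lowest of 5 fold classes 58.2% were at a gene end and 43.7% overlapped CTCF, and in the highest 19.7% and 99.2%. STAG2-only peaks were at a gene end for 1.74% to 2.42% in all 5 fold classes, while their CTCF overlap went from 11.1% to 96.8%. STAG1-only peaks without CTCF were at a gene start for 44.4% (42.5% to 46.2%), and those with CTCF for 23.9%. For STAG2-only peaks these shares were 0.896% and 0.768%.

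The 8 highest STAG1-only peaks at gene ends were mostly at starts. After RAPGEF1 and CEBPB came IRS1, an insulin receptor substrate, with a fold of 44.3 and a peak 3613 bp wide. Next was NPPC, the precursor of C-type natriuretic peptide, with 37.4. IL17RC, an interleukin-17 receptor chain, had 34.9 at its far end. ZZZ3, a subunit of a histone acetyltransferase complex, had 34.7 and RPL10A, a ribosomal protein, 34.1, both at the start. SPATS2L had 33.4 at its far end. All 8 overlapped CTCF, PDS5A and the 6 RAD21 lists. Of the 8 highest STAG2-only peaks at gene ends, 7 were at far ends. They were DCT, the melanin enzyme dopachrome tautomerase, with 26.8, FAM98A with 25.8, MNS1 with 25.6, FAM217B with 24.1, PPFIA2 with 23.9, WASL, an activator of actin branching, with 23.7, and HTR2A, a serotonin receptor, with 22.5. The remaining peak, with 23.9, was at the start of NCOA7 and overlapped no RAD21 list. None of the 8 overlapped PDS5A.

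Counted by gene, 22.2% of 19970 protein-coding genes had a STAG1-only summit within 1 kb of an end (4437 genes), 6.62% a shared one (1322 genes) and 0.771% a STAG2-only one (154 genes). Against these levels, 12 gene lists were read. Of 30 YAP, TGF-beta and AP-1 targets, genes of cell spreading and growth factor response, 14 had a STAG1-only, 10 a shared and 0 a STAG2-only peak. COL1A1, a collagen chain, and THBS1, thrombospondin, had shared folds of 117 and 113, and FN1, fibronectin, and SMAD7, an inhibitor of TGF-beta signalling, STAG1-only folds of 12.7 and 9.72. Of 53 clustered protocadherins, neuronal adhesion molecules whose promoters are chosen through CTCF and cohesin, 22 had a STAG1-only, 3 a shared and 1 a STAG2-only peak. PCDHGB7 had a shared fold of 112 and PCDHGA10 a STAG1-only fold of 18.0. Their gene models share a far end, so 1 peak there is counted for several genes. PCDHB14 held the STAG2-only peak, with a fold of 11.6.

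Genes of growth and housekeeping had STAG1-only peaks at shares between 20.3% and 33.3%, around the 22.2% of all protein-coding genes. Ribosomal protein genes, at 20.3%, were below that level and proteasome subunits, at 25%, near it. Among 30 cell cycle and checkpoint genes 10 had one, 2 a shared and 0 a STAG2-only peak. CDKN2B, an inhibitor of cyclin-dependent kinases, had a fold of 22.5. Of 20 cytosolic aminoacyl-tRNA synthetases, 6 had a STAG1-only peak and none a shared or STAG2-only one. The highest was RARS1, for arginine, with 8.50. Of 32 proteasome subunits, 8 had a STAG1-only peak, ADRM1 the highest with 26.3, and PSMA5 had a STAG2-only peak with 14.8. Of 79 ribosomal protein genes, 16 had a STAG1-only, 3 a shared and 0 a STAG2-only peak. Of 251 zinc finger genes on chromosome 19, 46 had a STAG1-only peak, or 18.3%, and 0 a STAG2-only peak. The cohesin genes themselves, 19 subunits and regulators, held 5 shared and 5 STAG1-only peaks. STAG1 had a shared fold of 39.3, STAG2 of 41.3 and PDS5B of 62.9, and NIPBL, the tagged gene, a STAG1-only fold of 4.65.

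The other 4 lists had STAG1-only peaks at 0% to 13.3% of their genes. Of 392 olfactory receptors, 8 had a shared, 0 a STAG1-only and 1, OR51L1, a STAG2-only peak. HOX genes, the regulators of body axis, had 2 shared and 2 STAG1-only peaks among 39, with HOXB5 at a shared fold of 55.9 and HOXD13 at a STAG1-only fold of 30.7. Of 69 replication-dependent histone genes, 4 had a STAG1-only and 1 a STAG2-only peak. The 15 genes of retinal pigment epithelium identity had 3 shared, 2 STAG1-only and 2 STAG2-only peaks. The STAG2-only peaks were at DCT, with 26.8, and RDH5, a retinol dehydrogenase, with 5.62. RDH5 also had a shared peak with 20.6.

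**Figure D2:**
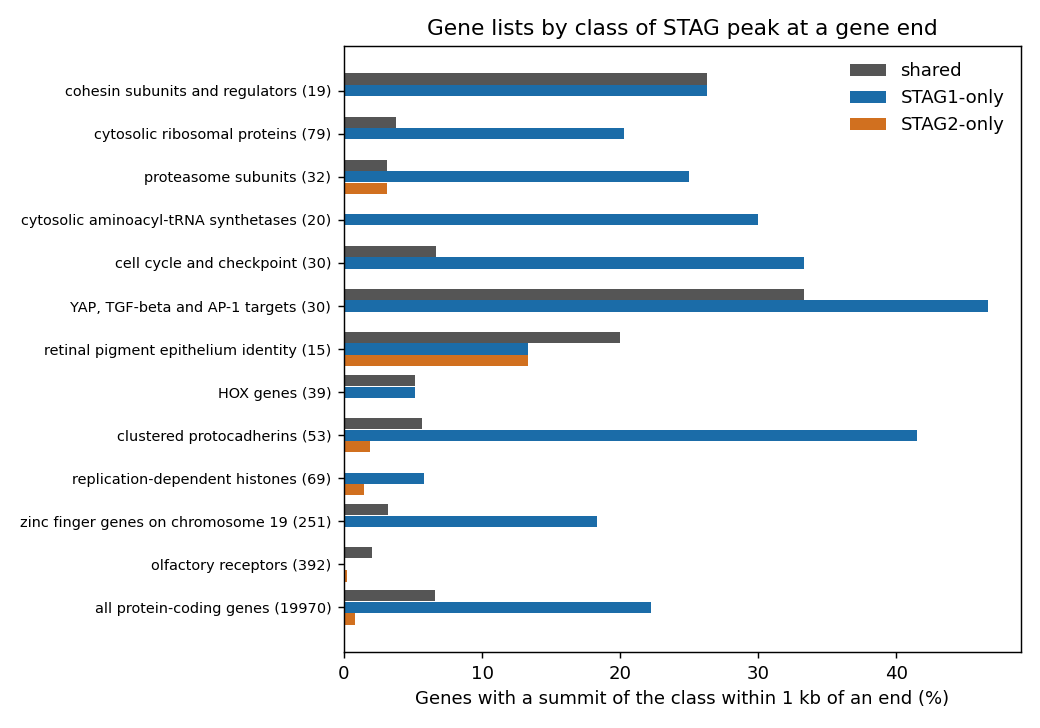
Share of the genes of each list (%, number of genes in brackets) with a shared, STAG1-only or STAG2-only summit within 1 kb of an end, with all protein-coding genes at the bottom. YAP, TGF-beta and AP-1 targets (14 of 30) and clustered protocadherins (22 of 53) have the longest STAG1-only bars, and olfactory receptors have none.

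The promoters of the classes differed in base composition. G and C made up a median of 69.0% of the 977 promoters with a STAG1-only summit, 66.2% of the 328 with a shared one, 43.8% of the 10 with a STAG2-only one and 62.7% of all 15811 promoters in the table. The median number of CpG was 30 for STAG1-only, 27 for shared, 3 for STAG2-only and 22 for all. The motif was found in 2.69% of all promoters, 13.4% of shared (10.1% to 17.5%), 5.94% of STAG1-only (4.62% to 7.60%) and 0 of the 10 STAG2-only promoters, for which the Wilson interval reaches 27.8%. STAG1-only promoters with a CTCF peak held it for 7.84% and those without for 1.91%, near the 2.24% of promoters with no STAG summit. Most STAG1-only promoters with a CTCF peak thus held no exact match, so its absence does not mean the lack of a CTCF site. No genome sequence was used, so base composition away from promoters was not measured, and its part in the difference between the libraries was not tested.

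The ratio of the exclusive classes varied by chromosome. There were 19.3 STAG1-only peaks for each STAG2-only peak on chromosome 19, 14.6 on chromosome 22 and 8.05 on chromosome 16, which are rich in genes, against 0.849 on chromosome 4. Chromosome 12 had the lowest ratio, 0.817. Its part from 14 to 35 Mb held 304 STAG2-only peaks, 4.44% of the class, and 55 STAG1-only peaks, 0.487%. In that part the STAG2 list held 450 peaks, the CTCF list 439, the STAG1 list 199 and the D7 DMSO RAD21 list 282. STAG2 peaks there made up 2.00% of the list, against 0.696% to 1.13% in the STAG1, CTCF, PDS5A and RAD21 lists. The share was 0.637% in the WAPL list and 3.04% in the HA list, which holds only 230 peaks. Occupancy and copy number of this part cannot be told apart with these lists. Without it the CTCF difference between the only-classes was 13.4 points against 15.0 with it.

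**Figure D3:**
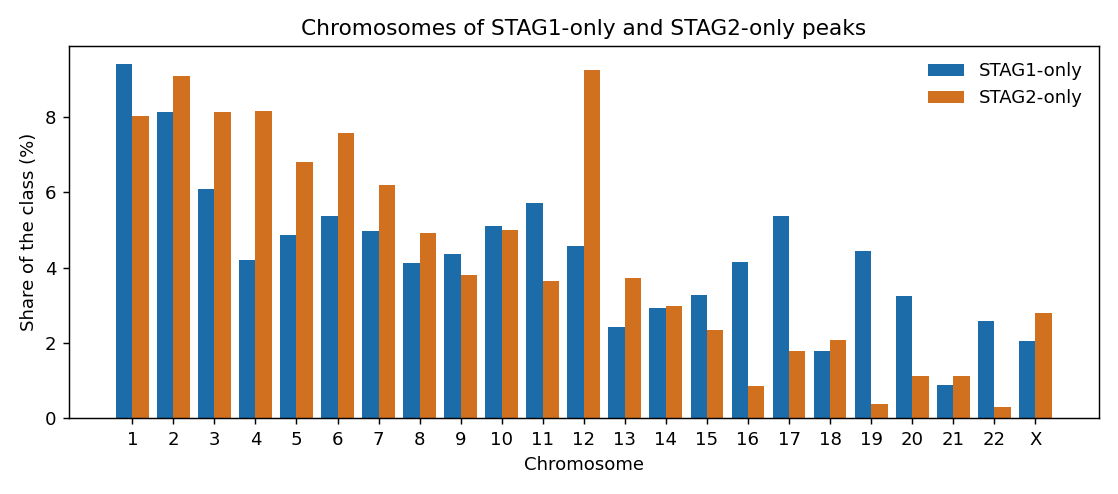
Share of STAG1-only and of STAG2-only peaks (% of the class) on each chromosome. STAG2-only bars are the taller on chromosomes 2 to 8 and 12 (9.25% against 4.58% on chromosome 12), and STAG1-only bars on 16, 17, 19, 20 and 22 (4.44% against 0.380% on chromosome 19).

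Windows of 1 Mb were picked for the most unequal counts and are given as examples. From 65 to 66 Mb on chromosome 11, with 49 protein-coding genes that include RELA, an NF-kappaB subunit, and FOSL1, an AP-1 subunit, there were 30 STAG1-only and 0 STAG2-only peaks. The largest excesses of STAG2-only peaks were in the part of chromosome 12 described above, with 0 STAG1-only and 26 STAG2-only from 18 to 19 Mb and 2 and 24 from 24 to 25 Mb. Those windows held 4 and 5 protein-coding genes.

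Genes were picked for holding the most peaks of an exclusive class, so their unequal counts follow from the choice and are given as examples. ZMIZ1, a transcriptional coactivator, held 11 STAG1-only and 0 STAG2-only peaks, and KCNMA1, a potassium channel, 11 and 1. The interval RefSeq gives for RANBP2 held 14 and 0. It spans 1123 kb and covers other genes. On the STAG2 side SOX5, a transcription factor of cartilage and neurons, held 21 STAG2-only and 2 STAG1-only peaks, and PIK3C2G 15 and 0. Both lie between 14 and 35 Mb of chromosome 12. Outside it, RAD51B, a homologous recombination factor, held 12 STAG2-only and 2 STAG1-only peaks, and INPP4B, a phosphoinositide phosphatase, 11 and 1. Shared peaks of the STAG1 list also lay in these genes: 1 in ZMIZ1, 11 in KCNMA1 and 5 in RANBP2. There were 1 in SOX5, 3 in PIK3C2G, 8 in RAD51B and 2 in INPP4B.

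Few peaks of any class had a close neighbour of that class. A peak of the same class lay within 10 kb for 17.8% of STAG1-only, 16.5% of shared peaks of the STAG1 list, 17.4% of shared peaks of the STAG2 list and 13.3% of STAG2-only peaks. Within 50 kb it did for 52.5% of STAG1-only and 41.2% of STAG2-only peaks. At 10 kb the exclusive classes had a difference of 4.54 points, which was -0.778 (-1.86 to 0.303) when both lists had the same length. Runs of 3 or more with gaps of at most 10 kb held 3.64% of STAG1-only and 2.60% of STAG2-only peaks. The largest STAG1-only runs had 5 peaks each, among them those over PLEKHG6 and TNFRSF1A, a receptor for tumour necrosis factor, and at BCAR1, an adhesion scaffold. In BCAR1 all 5 overlapped RAD21 in D7 DMSO and PDS5A. The largest STAG2-only run had 9 peaks over 45.4 kb next to the histone gene H4C8 on chromosome 6, of which 2 overlapped CTCF, 1 RAD21 and 0 PDS5A. The next 2 had 5 peaks, at FCGR2A and HSPA6 and in DST, a cytoskeletal linker.

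STAG1 peaks were wider than STAG2 peaks also where both were bound. In the mutual pairs the STAG1 peak was the wider in 79.7%, by a median of 221 bp. The width of the only-classes stands beside this difference between the libraries at the same sites, whose part was not tested. Median width was 789 bp for shared and 577 bp for STAG1-only peaks of the STAG1 list, and 566 bp for shared and 461 bp for STAG2-only peaks of the STAG2 list. A width of at least 1 kb was reached by 24.0% of shared and 14.3% of STAG1-only peaks, against 2.22% and 1.96% in the STAG2 list. The widest STAG1-only peaks, of 5505 and 5398 bp, lay at ZMIZ1 and at the start of SMAD7. The widest STAG2-only peaks, of 1879 and 1874 bp, lay 20495 bp from COL1A2, a collagen chain, and at the far end of TES, a focal adhesion protein.

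CTCF overlapped 96.3% of shared, 75.8% of STAG1-only and 60.9% of STAG2-only peaks. The difference between the only-classes was 15.0 points (13.6 to 16.4), and -0.416 points (-1.92 to 1.08) against the upper 50% of the CTCF list by fold. Where they overlapped CTCF, STAG2-only peaks had a median CTCF fold of 31.0 against 24.2 for STAG1-only and 61.9 for shared peaks. The 90th percentile had the other order for the exclusive classes, 59.8 against 87.0. Of the lists compared, PDS5A had the largest difference between the only-classes, 62.2 points (61.2 to 63.1). It overlapped 65.2% of STAG1-only (64.3% to 66.1%), 73.9% of shared and 3.07% of STAG2-only peaks (2.69% to 3.50%). In the highest fold class PDS5A overlapped 90.5% of STAG1-only and 3.84% of STAG2-only peaks. By its label the PDS5A library comes from the same clone. Of the STAG2-only peaks with CTCF, RAD21 overlapped 60.4% in D7 DMSO and 92.2% in A2 DMSO. Of the STAG1-only peaks with CTCF it overlapped 90.9% and 87.6%. Whether the STAG2 library carries the right label was not tested. WAPL overlapped 16.3% of shared, 0.549% of STAG1-only and 0.599% of STAG2-only peaks, in a list of 2667 peaks from wild-type cells.

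**Figure D4:**
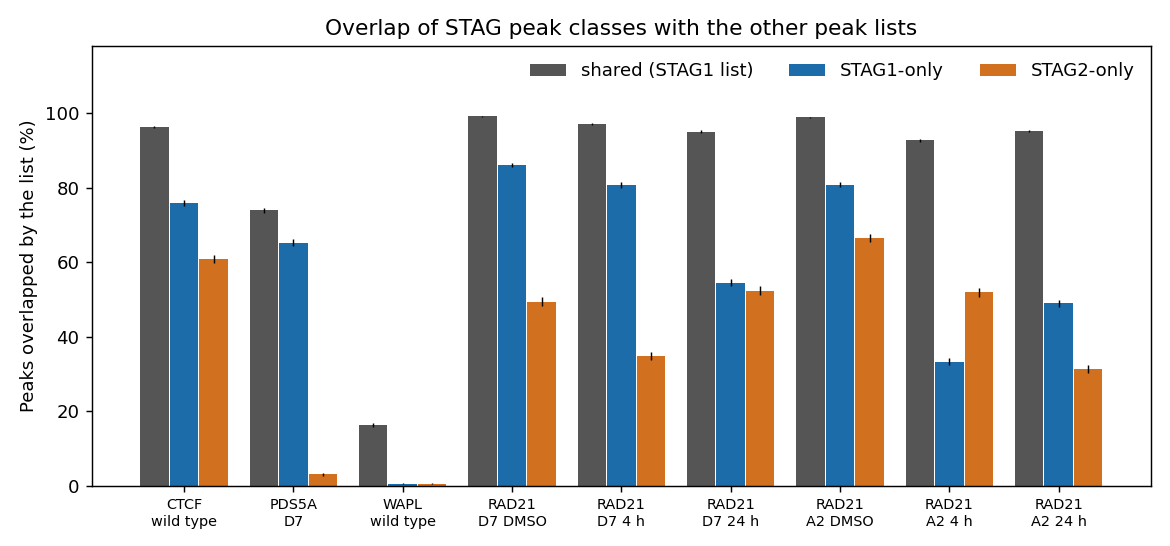
Share of shared, STAG1-only and STAG2-only peaks (%) overlapped by the CTCF, PDS5A and WAPL lists and by the 6 RAD21 lists, with 95% Wilson intervals. Shared peaks exceed 92% in every RAD21 list, and the PDS5A bars stand at 65.2% for STAG1-only and 3.07% for STAG2-only peaks.

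In DMSO, RAD21 accompanied a larger share of STAG1-only than of STAG2-only peaks in both clones, and in A2 at 4 h a smaller one. A RAD21 peak was absent from all 6 lists for 0.115% of shared, 4.66% of STAG1-only and 21.4% of STAG2-only peaks, and present in all 6 for 88.7%, 26.2% and 17.1%. Neither CTCF nor D7 DMSO RAD21 overlapped 7.01% of STAG1-only and 26.6% of STAG2-only peaks. Of the 2678 STAG2-only peaks without CTCF, 50.3% (48.4% to 52.2%) had no RAD21 peak in any list, against 12.6% of the 2728 STAG1-only peaks without CTCF. These STAG2-only peaks had a median fold of 4.59, against 9.18 for those with CTCF.

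After dTAGV-1, RAD21 peaks were still called at nearly all shared sites and at a smaller share of exclusive ones. In clone D7, 80% of all 37566 DMSO RAD21 peaks were overlapped by a RAD21 peak at 4 h and 68.8% at 24 h. At shared sites these were 97.3% and 95.3% of 15507 peaks. At STAG1-only sites 86.1% of 9646 peaks were still called at 4 h and 61.1% at 24 h. At STAG2-only sites 60.9% of 3334 peaks were still called at 4 h and 69.4% at 24 h. Where neither STAG list had a peak, 51.2% and 31.3% of 9079 were. The STAG1-only share was thus 25.2 points above the STAG2-only share at 4 h (23.4 to 26.97) and 8.38 points below it at 24 h (difference -8.38, -10.2 to -6.53). Of the STAG2-only sites with RAD21 in DMSO, 19.2% were absent at 4 h and present at 24 h, against 2.29% of the STAG1-only sites. Of the STAG1-only sites, 27.3% were present at 4 h and absent at 24 h, against 10.7% of the STAG2-only sites. Clone A2 had both in the other order.

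Clone A2 gave the opposite order at both times. There, 62.2% of 39713 DMSO RAD21 peaks were overlapped at 4 h and 64% at 24 h. At STAG1-only sites 40.2% of 9179 peaks were still called at 4 h and 57.3% at 24 h. At STAG2-only sites 75.9% of 4525 were still called at 4 h and 41.1% at 24 h. The differences, STAG1-only minus STAG2-only, were -35.7 points at 4 h (-37.3 to -34.1) and 16.2 points at 24 h (14.4 to 17.9). Absent at 4 h and present at 24 h were 7.09% of the STAG2-only and 20.6% of the STAG1-only sites, and present at 4 h and absent at 24 h 41.9% and 3.42%. Shared sites kept 93.2% and 95.5%, and sites with neither STAG peak 29.7% and 33.2%. The order of the exclusive classes was thus reversed between the clones at both times. Against DMSO, the share of STAG1-only peaks with RAD21 was lower at both times in both clones, and that of STAG2-only peaks fell by 14.6 points at 4 h in both.

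Within each list taller RAD21 peaks were kept more often, with 1 exception. In D7 at 4 h the share rose from 71.8% to 100% over the 5 fold classes at STAG1-only sites, and from 36.7% in the lowest to 94.5% in the fourth at STAG2-only sites. In A2 at 24 h the STAG1-only sites went from 22.01% to 98.9%. The STAG2-only sites of A2 at 24 h went from 28.7% in the lowest class to 48.1% in the third and 27.8% in the highest, so that the tallest were among the least kept. At 4 h all 331 of the highest class had still been called. The 959 STAG2-only sites described at the end had a median RAD21 fold of 18.5 in A2 DMSO, and none was in the A2 24 h list. Their part in this exception was not tested.

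**Figure D5:**
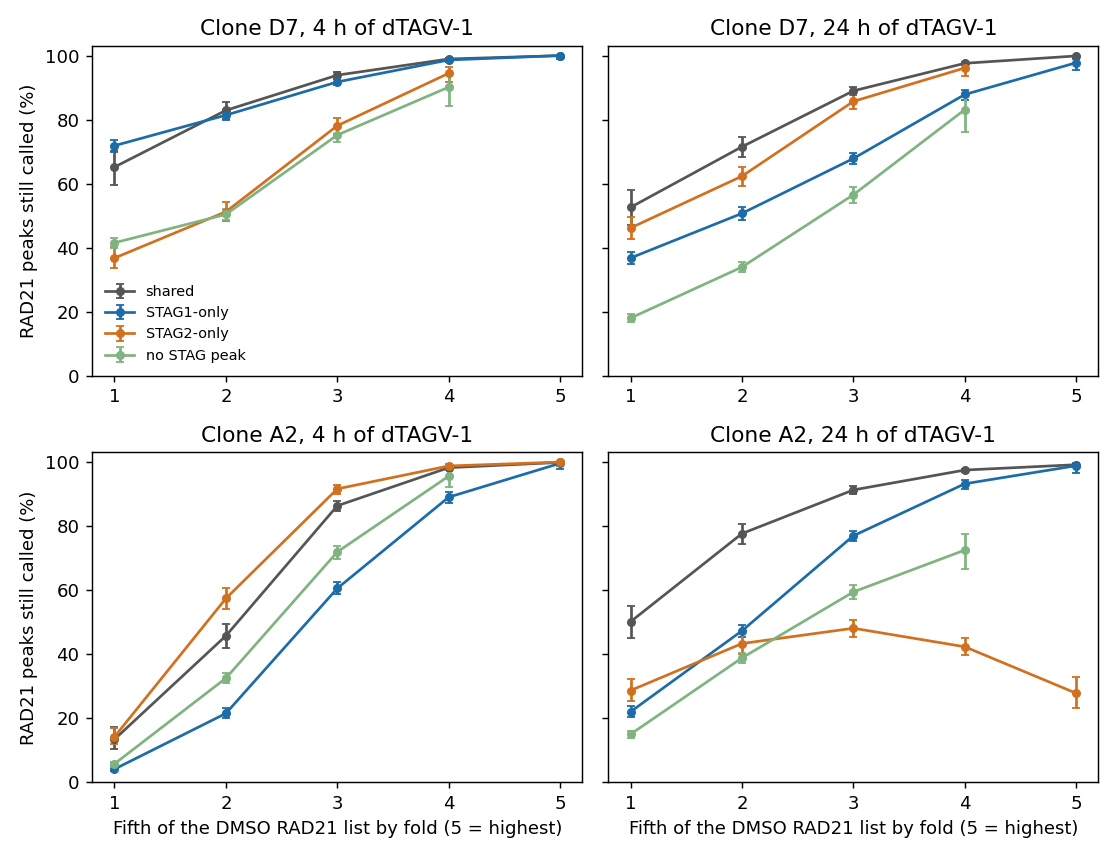
Share of DMSO RAD21 peaks still called (%) after 4 h (left) and 24 h (right) of dTAGV-1 in clone D7 (top) and clone A2 (bottom), by fold class of the DMSO list (5 is the highest), with 95% Wilson intervals. Points of under 20 RAD21 peaks are left out. The curves rise with fold apart from the STAG2-only curve of A2 at 24 h, which ends at 27.8%.

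Individual sites show both outcomes. The STAG1-only peaks at RAPGEF1, near OSR1 and nearest to SLC1A4 and the STAG2-only peak in SETD3 had RAD21 in all 6 lists. The STAG2-only peaks in TUSC3 and 116844 bp from ARRDC3, with a fold of 52.5, had it in all but A2 at 24 h. The highest STAG1-only peaks whose RAD21 was in D7 DMSO and at neither later time lay in TOR1AIP2, with 23.5, near TRIP13, a checkpoint ATPase, with 19.3, and in USP4, a deubiquitinase, with 19.1. The highest STAG2-only ones lay in CFAP97 with 24.2, in NHEJ1, an end-joining factor, with 22.1, and in NCOA4, a ferritin receptor, with 18.3. All 6 overlapped CTCF. In clone A2 the TRIP13 site had RAD21 at both later times, TOR1AIP2 at 24 h and NHEJ1 at 4 h, and the other 3 had it at neither.

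A set of STAG2-only sites was split between the RAD21 lists. Of the 4165 STAG2-only peaks that overlapped CTCF, 959, or 23.0% (21.8% to 24.3%), had RAD21 in the libraries labelled A2 DMSO, A2 4 h and D7 24 h and in none of the other 3, against 4 of 8566 STAG1-only peaks. The set was chosen after its values were seen. The sites had a median STAG2 fold of 11.35, and RAD21 had a median fold of 18.5 in A2 DMSO, 15.8 in A2 4 h and 11.3 in D7 24 h. In the lists without them the nearest RAD21 summit was a median of 45.7 kb away in A2 24 h, 33.7 kb in D7 DMSO and 36.4 kb in D7 4 h. PDS5A overlapped 7 of the 959 and STAG1 none, by definition. The site in GABRB1 (chromosome 4, 47383224 to 47384413) had a STAG2 fold of 56.7 and RAD21 folds of 44.2 in A2 DMSO, 58.1 in A2 4 h and 42.5 in D7 24 h. Sites in TFPI, in DTNB, a dystrobrevin, and in RNGTT, the mRNA capping enzyme, had STAG2 folds of 64.7, 55.5 and 54.3 and the same presence and absence. Over all 59138 CTCF peaks, 1297 had this RAD21 pattern, of which 74.7% were in the STAG2 list and 1.39% in the STAG1 list, while the reverse pattern was seen at 129. Among the RAD21, STAG and PDS5A lists, those that held the sites had narrowest peaks of 262 to 317 bp, STAG2 with its 310 bp included. The others of these lists had 336 to 353 bp. WAPL and HA had narrowest peaks of 256 and 239 bp, but lists of only 2667 and 230 peaks. Lists this short cannot show whether the split extends to them. WAPL and HA overlapped 0.599% and 0.132% of all STAG2-only peaks, and 0.549% and 0.221% of STAG1-only peaks. CTCF, which overlapped the sites by definition, had 322 bp. The part of the narrowest width in the pattern was not tested. Each clone and each treatment had a list with the sites and a list without them. With 1 library for each clone and treatment, their combination cannot be told apart from the library as the source of the pattern. Whether the 24 h RAD21 libraries of the 2 clones, or the STAG2 library, carry the right label was not tested. If they do not, the comparisons by clone and time above, and between STAG1 and STAG2, would not be what their labels say. With the A2 list at 24 h set against D7 DMSO in place of the D7 list, the difference between STAG1-only and STAG2-only sites was 0.169 points (-1.79 to 2.13).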

How the data were processed

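ChIP-seq libraries of hTERT RPE-1 cells were given as 12 peak lists in narrowPeak layout, 1 per immunoprecipitation, and 10 inputs without a list. Per the submitters' processing notes, the tools were BWA, Picard, SAMtools, bedtools, deepTools and MACS2 and the builds hg38 and mm10. Roles and versions are not given in the sources used here. The score, the fold enrichment (a ratio), the −log10 p and the −log10 q of each peak are the values the authors deposited. Peak names carry a q of 0.001 for CTCF and 0.01 for the other lists. Each list's peak names carry 1 immunoprecipitation library and 1 input, per the deposited files.

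Overlap meant at least 1 bp. Distances ran from the summit to either end of 19970 protein-coding genes of the RefSeq GRCh38.p14 table. Summit and background pileups were solved from fold and p. Summit pileups were whole, within 0.05, in all lists but HA. Peaks with the highest −log10 p were left out of that check. The lowest background pileup of each list served as its depth. Intervals were 95% Wilson or Newcombe. Overlap, distance and pileup code was tested on simulated data. Work used Python 3.11.15, numpy 2.4.6, pandas 2.3.3 and scipy 1.17.1. Alternatives covered the q threshold, list length, overlap rule, depth, window, CTCF height, clone and neighbour distance. No test between groups was run. Named peaks were the highest by fold (4 per class, 8 at gene ends, 3 with RAD21 kept and 3 with it lost), the 2 widest, the 3 largest runs, the 4 fullest genes, the 2 most unequal windows and up to 4 genes per list. A few items this rule selects are not reported here. Members, gene lists and alternatives were chosen with earlier results of these data known.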

Additional observations from a re-analysis of the deposited data

Results flagged for a closer look

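After dTAGV-1 the exclusive class with the larger share of RAD21 peaks still called differed between the 2 clones at each time. The share of DMSO RAD21 peaks still called at 4 h, STAG1-only minus STAG2-only, was 25.2 points in clone D7 and -35.7 points in clone A2. At 24 h it was -8.38 points in clone D7 and 16.2 points in clone A2. From DMSO to 24 h the share of STAG2-only peaks with a RAD21 peak changed by 3.00 points in clone D7, from 49.3% to 52.3%, and by -35.2 points in clone A2, from 66.5% to 31.3%. STAG1-only peaks fell in both clones over the same time, by 31.7 points in D7 and by 31.9 points in A2. Each clone and time had 1 library, so whether the clones differ beyond replicate error was not tested. The 959 STAG2-only sites described above had RAD21 in D7 at 24 h and not in D7 DMSO, and the reverse in A2. Whether the 24 h libraries carry the right label was not tested. With the A2 list at 24 h set against D7 DMSO, the 24 h difference was 0.169 points (-1.79 to 2.13).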

How the results depend on the processing

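The exclusive classes were recomputed under 63 alternatives over 11 results. Of these 5 turned the sign of the difference, 16 stayed within the counting interval and 42 moved beyond it without turning. Differences are STAG1-only minus STAG2-only, in points unless stated. The turned results included RAD21 kept in clone A2 at 4 h (-35.7) and 24 h (16.2). The others were the CTCF difference against the upper 50% of the CTCF list (-0.416, -1.92 to 1.08) and RAD21 kept at 24 h with the A2 24 h list (0.169, -1.79 to 2.13). Last was the share with a neighbour within 10 kb at equal list lengths (-0.778, -1.86 to 0.303). The intervals given here span both signs, so in these the difference was lost rather than reversed.

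With peaks kept from a −log10 q of 10 upward, the overlap was 64.3% of STAG1 and 73.1% of STAG2 peaks. The differences were 2.62 for CTCF, 28.6 for gene ends, -40.8 kb for the median distance to a gene end, 28.9 for RAD21, 19.99 and -11.9 for RAD21 kept at 4 h and 24 h, and 69.5 for PDS5A. At equal list lengths the overlap was 65.1% and 65.5%, and the differences were 25.1 for CTCF, 29.5 for gene ends, -48.8 kb, 39.9 for RAD21, -3.35 for RAD21 kept at 24 h, 149 bp for width and 71.7 for PDS5A. With shared peaks defined by summits within 200 bp the overlap was 56.0% and 66.8%, and the differences were 31.6 for gene ends, -47.6 kb, 33.3 for RAD21 and 57.7 for PDS5A. With STAG2 scaled to the depth of STAG1, 70.9% of its peaks were shared, and the differences were 11.2 for CTCF, 34.6 for RAD21 and 5.83 for neighbours. The gene-end difference was 39.1 with a window of 2.5 kb and 28.0 for starts alone. The neighbour difference was 11.3 within 50 kb. The RAD21 difference was 14.3 in clone A2, and RAD21 kept at 24 h was -12.0 with RAD21 lists of equal length.

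Chosen after seeing the data, the removal of chromosome 12 from 14 to 35 Mb gave 13.4 for CTCF, 35.3 for RAD21 and 5.67 for neighbours. Among CTCF-overlapping peaks the differences were 28.3 for gene ends, 30.5 for RAD21, 20.8 and -18.0 for RAD21 kept at 4 h and 24 h, 104 bp for width and 69.1 for PDS5A. The cause of these changes was not tested.

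No paired analysis was possible because STAG1 and STAG2 had 1 library each and share no replicate number beyond 1. The 2 clones share treatments for RAD21. Their values are given separately, and no test over the clones was run. Leaving out a replicate was likewise not possible. The STAG1 list had the lower background pileup, 1.77 against 3.14, and a missing peak shows only that none was detectable at that depth. A spike-in factor was not used, so a uniform change of RAD21 would not be seen.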
